A study of Mus musculus with 12 samples.

Results

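The genes described here are the heat shock proteins, their J-domain partners and the chaperonins of 3T3-L1, a line of mouse preadipocytes that become fat cells when induced by hormones. Members were the protein-coding genes whose symbol begins with Hspa, Hspb, Hspd, Hspe, Hsph, Hsp90 or Dnaj, together with Tcp1 and the genes from Cct2 to Cct8, without Hspa4l, Hspbp1 and Hspbap1. The rule took 80 of the 55414 gene identifiers counted, and 14 pseudogenes that match it by name were left out. Of the 80 members, 67 had enough counts to be tested, 7 had between 1 and 67 counts over all libraries, and 6 (Dnajb3, Dnajb7, Dnajb8, Dnajc5g, Hspb3 and Hspb9) had no count. The members together took 1.24 to 1.36% of the counts of a day 0 library and 0.893 to 1.10% of a day 2 library.

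Chaperones bind unfolded proteins and help them reach or keep their native fold. HSP70 proteins do so in cycles of ATP binding and hydrolysis that J-domain proteins (the Dnaj genes) start, HSP90 proteins act late on clients such as kinases and steroid receptors, and small heat shock proteins hold unfolded proteins without ATP. TRiC, also called CCT, is a double-ring chaperonin of the cytosol that folds actin and tubulin. The endoplasmic reticulum (ER) and the mitochondria each have an HSP70 and J-domain partners of their own, the ER has its own HSP90 as well, and Hspd1 and Hspe1 form the mitochondrial chaperonin.

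RNA was sequenced as stranded, poly(A)-selected libraries in 4 groups of 3. The cells carried CTRL-GFP (genotype Control) or FHL2-GFP (genotype FHL2 overexpression), a LIM-domain protein joined to a fluorescent tag. They were taken after confluence on day 0 or on day 2, after induction with 170 nM insulin, 1 uM dexamethasone and 0.5 mM isobutylmethylxanthine, and all groups grew in serum. The labels do not say whether the libraries of a group came from separate cultures, so p-values measure only the spread between these libraries, nor whether a line is 1 clone. Beyond the 3T3-L1 line itself, the labels name no cell type other than mesenchymal stem cells.

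Total counts were 14686042 to 21872139 per library on day 0 and 10047708 to 18081275 on day 2. Between 17977 and 18811 genes had a count in a day 0 library, against 12689 to 16131 on day 2, and the lowest numbers were in control replicate 3 and FHL2-labelled replicates 1 and 2 of day 2. Per 1000000 counts of the library, Fhl2 itself had 62.7, 66.2 and 70.7 in the control and 72.9, 64.5 and 68.1 in the libraries labelled FHL2-GFP on day 0. On day 2 it had 12.5, 13.0 and 19.3 against 17.6, 9.0 and 20.6. The gene's own counts overlapped between the labels on both days, so they do not separate the groups the way the genotype label states. These are counts of the mouse Fhl2 gene. Whether reads of the FHL2-GFP construct would be counted there was not tested, so they do not show whether the construct was expressed. The name "FHL2-labelled" is used for these libraries throughout. A list of 6 preadipocyte and fibroblast genes summed to between 9661 and 13786 CPM in every library. The summed level was at most 2.70 CPM for 4 macrophage genes, 2.95 for 3 endothelial genes, 1.51 for 3 epithelial genes and 5.13 for 4 muscle genes, and Adgre1, Epcam, Krt18, Myod1, Myog and Actn2 had no count.

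Levels are in CPM (counts per 1000000 after TMM scaling), given in the order of replicates 1, 2 and 3. Changes are log2 fold changes with their standard errors from edgeR's quasi-likelihood test, with p-values adjusted over all 14435 genes tested, and a gene is said to have risen or fallen where the adjusted p was under 0.05. In bulk RNA, fewer cells of a type and less RNA per cell cannot be told apart.

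More members fell than rose between day 0 and day 2. In the control 11 of the 67 tested members rose and 28 fell. Over all genes tested, 26.3% rose and 30.8% fell, and the median change was -0.54 for the members and -0.14 for all genes. In the FHL2-labelled libraries 11 members again rose and 28 fell, beside 25.8% and 30.2% of all genes, with medians of -0.37 and -0.11. Of these calls, 9 rises and 25 falls were shared by both lines, and no member was called in opposite directions. The sign of the change was the same for 60 of the 67 members. This agreement was not counted over all genes, so it is not read as a trait of the members. Leaving out FHL2-labelled day 0 replicate 1, or day 2 replicate 2, lowered the rises in the FHL2-labelled libraries to 7.

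The day change of a gene moved with the GC content of its transcript, among the members as over all genes. Spearman's rho between GC content and the change was 0.64 in the control and 0.70 in the FHL2-labelled libraries over the 67 members, and 0.61 and 0.59 over all tested genes with a GC value. These are correlations across genes, which share the same libraries and are not independent replicates. A second fit therefore gave each library a smooth offset along GC content. In it, 17 members rose and 11 fell in the control (21.0% and 17.2% of all genes), and 14 rose and 12 fell in the FHL2-labelled libraries (20.5% and 17.7%). Of the 39 control calls, 6 rises and 9 falls remained, 20 were lost and 4 turned to the opposite call, and 9 members gained one. Whether the trend with GC content belongs to the libraries or to the cells was not tested, so corrected changes are set beside the fitted ones below. The 5 members that rose in both lines and both fits were Dnajb2, Cct3, Cct5, Cct7 and Dnajc30. The 7 that fell were Hspd1, Hsp90b1, Dnajb6, Dnajc2, Dnajc7, Dnajc13 and Dnajc21. No matching count was made over all genes, so these numbers are not read as a result about the members.

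**Figure D1:**
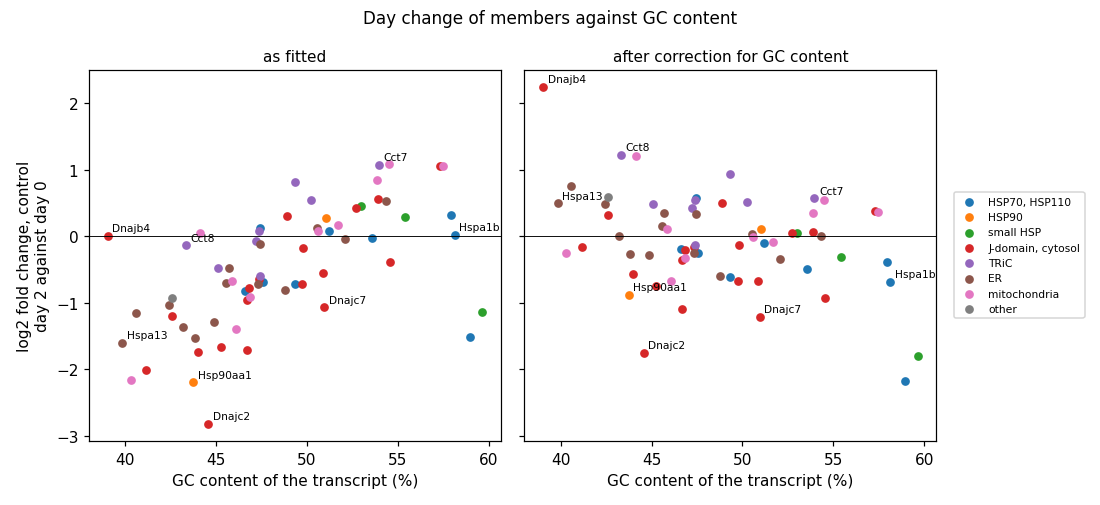
Log2 fold change from day 0 to day 2 in the control (y axis) of 66 tested members against the GC content of their longest coding transcript in % (x axis), as fitted (left) and after correction for GC content (right), coloured by compartment; Dnajc22, without counts in 1 group, is not drawn. Points rise from lower left to upper right on the left (rho of 0.64 over the 67 members) and slope slightly the other way on the right (-0.23).

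**Figure D2:**
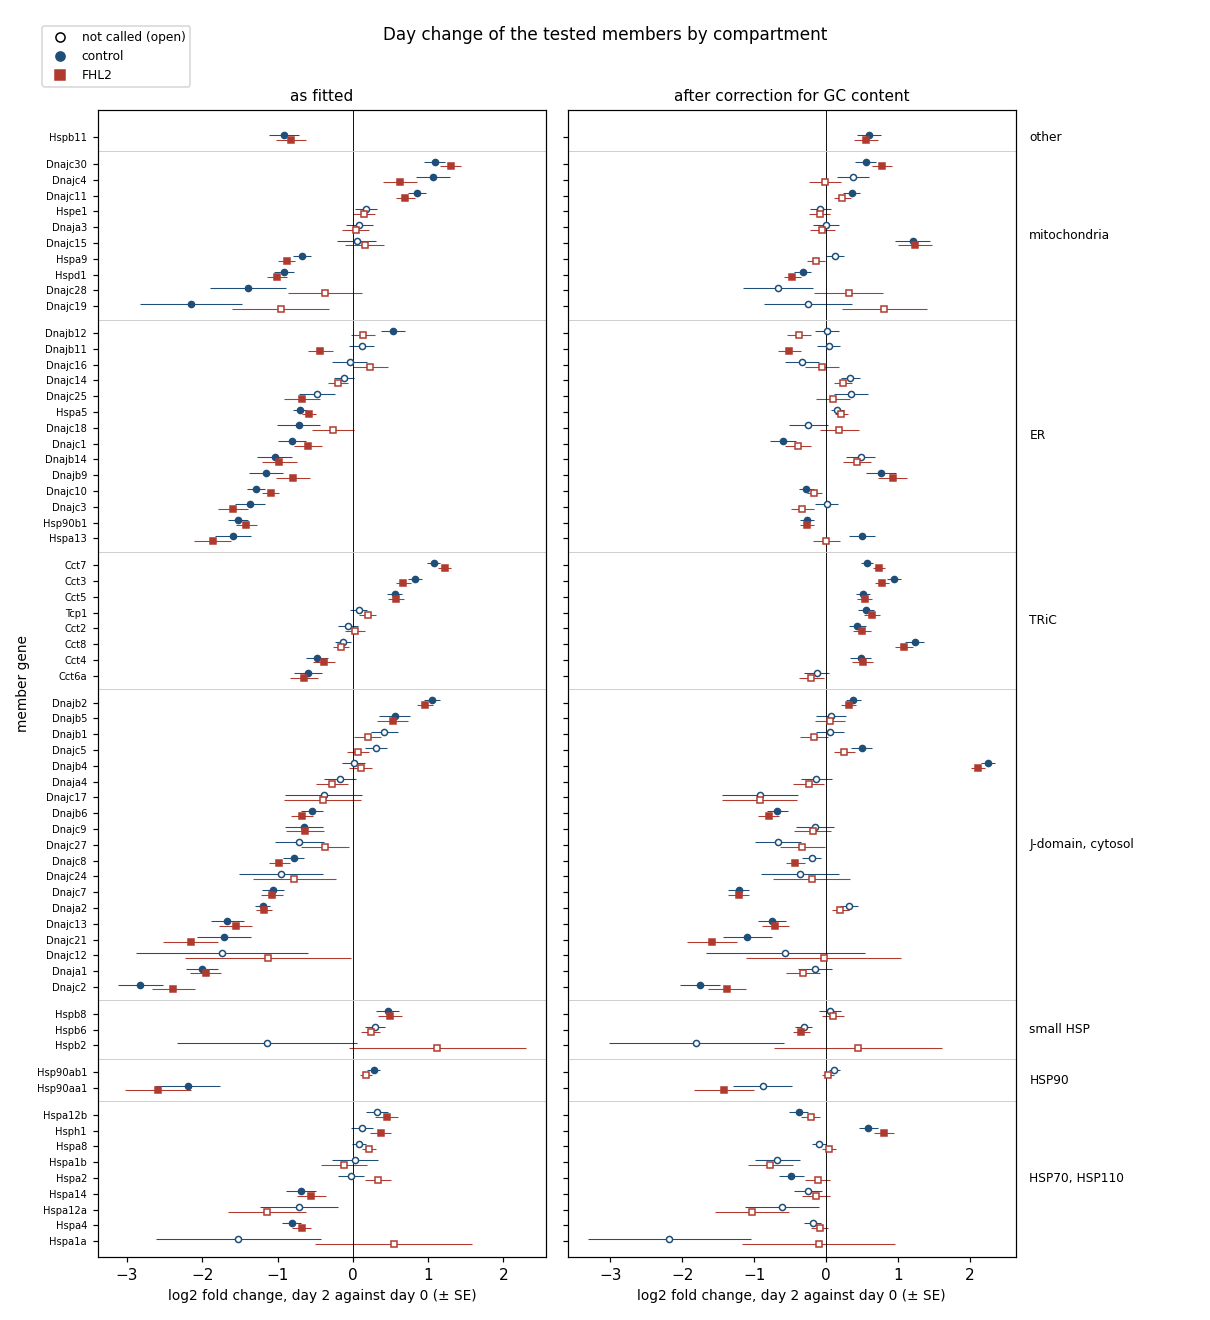
Log2 fold change from day 0 to day 2 (x axis, with standard error) of each tested member except Dnajc22, by compartment, in the control (circles) and FHL2-labelled libraries (squares), as fitted (left) and after correction for GC content (right); filled symbols have an edgeR adjusted p under 0.05. The ER members lie mostly left of 0 on the left panel and around 0 on the right, while 7 of 8 TRiC subunits lie right of 0 after the correction.

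Of the 9 tested cytosolic HSP70 and HSP110 genes, none rose and 2 fell in the control as fitted, and 2 rose and 2 fell in the FHL2-labelled libraries, beside 26.3% rises and 30.8% falls over all genes in the control and 25.8% and 30.2% in the FHL2-labelled libraries. After the GC correction 1 rose and 2 fell in the control (all genes 21.0% and 17.2%). In the FHL2-labelled libraries 1 rose and none fell (20.5% and 17.7%). Hspa8, the constitutive HSP70, was the second most abundant member per kilobase of transcript on both days in the control (325 and 344 CPM per kb). It had 766, 807 and 763 CPM on day 0 and 731, 870 and 872 on day 2 in the control. In the FHL2-labelled libraries it had 757, 761 and 749 against 782, 853 and 999.8 CPM. The control groups overlapped and the FHL2-labelled ones did not, and neither change passed the test (0.08 ± 0.09, edgeR adjusted p = 0.48, and 0.22 ± 0.09, adjusted p = 0.063). The corrected changes of -0.10 and 0.04 did not pass either.

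The stress-inducible pair, Hspa1a and Hspa1b, had low counts in all 4 groups. Hspa1b lay between 6.16 and 10.3 CPM over the 12 libraries, with day changes of 0.03 ± 0.31 in the control (edgeR adjusted p = 0.95) and -0.12 in the FHL2-labelled libraries (adjusted p = 0.77). Corrected for GC content they were -0.68 and -0.78 and did not pass (edgeR adjusted p = 0.10 and 0.062). Hspa1a stayed at or below 1.64 CPM. The transcripts are near copies: 62.3% of the 50-base stretches of Hspa1b occur in Hspa1a, so how reads fell between them is uncertain, and reads that match both may not have been counted. Their sum was 7.87 to 9.26 CPM in the control on day 0 and 7.38 to 9.52 on day 2, ranges that overlapped.

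Hspa4, an HSP110-type exchange factor that reloads HSP70 with ATP, had 321, 299 and 277 CPM on day 0 and 140, 211 and 158 on day 2 in the control, and 335, 322 and 308 against 191, 217 and 193 CPM in the FHL2-labelled libraries. It fell in both, with no overlap (-0.81 ± 0.13, edgeR adjusted p = 7.7e-05, and -0.68 ± 0.13, adjusted p = 3.8e-04). After the GC correction the changes were -0.18 and -0.09 and did not pass. Hspa14, a ribosome-associated HSP70, showed the same course (-0.69 and -0.55 as fitted, -0.25 and -0.14 corrected), and its FHL2-labelled call was lost without 3 single libraries (FHL2-labelled day 0 replicate 1 or 2, or day 2 replicate 3).

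Hsph1, the other HSP110 among the members, did not fall in either line. It had 93.3, 81.8 and 83.6 CPM on day 0 and 81.4, 115 and 84.5 on day 2 in the control, which overlapped, and 86.2, 91.1 and 73.4 against 99.2, 103 and 122 in the FHL2-labelled libraries, which did not. The changes were 0.12 ± 0.14 (edgeR adjusted p = 0.50) and 0.37 ± 0.14 (adjusted p = 0.039) as fitted, and 0.58 and 0.80 after the GC correction, where both passed (adjusted p = 0.0033 and 2.6e-04). The uncorrected FHL2-labelled call was lost without any 1 of the control day 0 libraries, without FHL2-labelled day 0 replicate 1 or 3, or without day 2 replicate 2 or 3. Hspa12b, a distant HSP70 of blood vessels, rose in the FHL2-labelled libraries as fitted (0.45 ± 0.15, edgeR adjusted p = 0.019). It was at -0.21 there after the correction, which did not pass (adjusted p = 0.23). In the control its change did not pass as fitted (0.32 ± 0.15, edgeR adjusted p = 0.078), and it fell after the correction (-0.38, adjusted p = 0.033). The FHL2-labelled call of Hspa12b was lost without FHL2-labelled day 0 replicate 1 or 3 or day 2 replicate 2.

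The cytosolic HSP90 genes moved apart. Hsp90ab1, the constitutive form, was the most abundant member per kilobase in all 4 groups and alone held 24.6% of the members' counts in the control on day 0 and 33.1% on day 2. Its levels were 2833, 2983 and 2945 CPM on day 0 and 3169, 3803 and 3625 CPM on day 2 in the control. It rose there by 0.27 ± 0.08 (edgeR adjusted p = 0.0094), with no overlap. In the FHL2-labelled libraries it had 2879, 3080 and 2976 against 3186, 3217 and 3705 CPM, also without overlap, but the change did not pass (0.18 ± 0.08, edgeR adjusted p = 0.074). Corrected for GC content, the changes were 0.11 and 0.03.

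Hsp90aa1, the inducible form, fell from 313, 278 and 168 CPM to 32.1, 57.8 and 77.1 in the control and from 286, 192 and 190 to 41.3, 12.3 and 57.4 in the FHL2-labelled libraries. Every day 2 library lay below every day 0 library. The changes were -2.19 ± 0.43 (edgeR adjusted p = 5.6e-04) and -2.58 ± 0.44 (adjusted p = 1.7e-04). After the GC correction they were -0.88 ± 0.41 (adjusted p = 0.11) and -1.42 ± 0.41 (adjusted p = 0.014), so the control call was lost. Hsp90aa1 has a GC content of 43.7% and Hsp90ab1 of 51.0%. The share of cytosolic HSP90 counts from Hsp90aa1 was 5.39 to 9.96% on day 0 and 1.00 to 2.08% on day 2 in the control. In the FHL2-labelled libraries it was 5.86 to 9.03% and 0.380 to 1.53%.

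**Figure D3:**
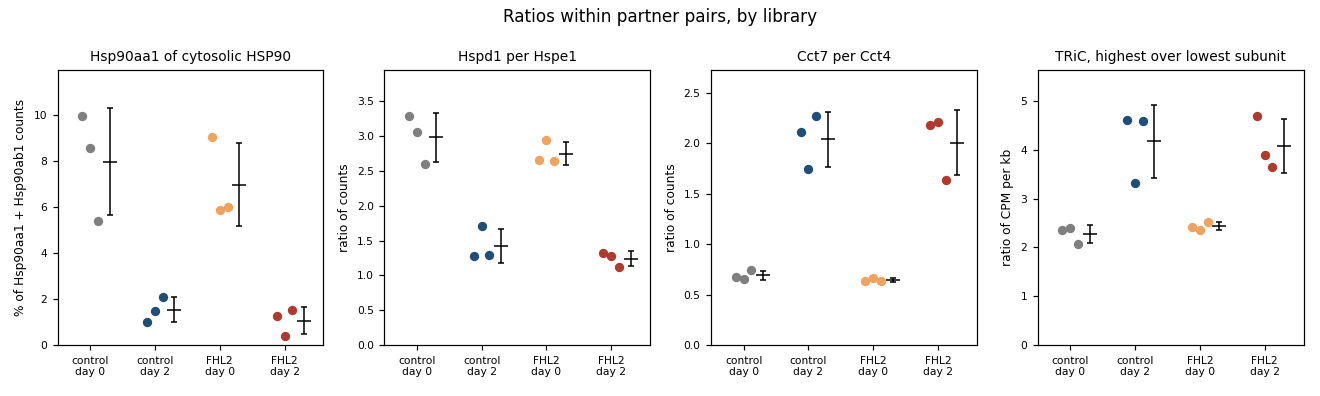
Ratios by library in the 4 groups: the share of Hsp90aa1 in Hsp90aa1 plus Hsp90ab1 counts (%), the Hspd1 per Hspe1 count ratio, the Cct7 per Cct4 count ratio, and the CPM per kb of the highest over the lowest of the 8 tested TRiC subunits. Points are libraries, bars the mean and SD of 3. In each panel the day 2 libraries do not overlap the day 0 libraries of the same line. The ratios are not corrected for GC content.

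Over all genes 26.3% rose and 30.8% fell in the control, and 25.8% and 30.2% in the FHL2-labelled libraries. Of 14 HSP90 cofactors, 9 rose and 5 fell in both lines. The largest rise was in Fkbp5, a glucocorticoid-induced immunophilin of steroid receptor complexes, from a mean of 23.2 to 327 CPM in the control (3.82 ± 0.11, edgeR adjusted p = 1.6e-11, and 3.59 after the GC correction). Dexamethasone, an agent of the induction, is a glucocorticoid. Chordc1, a cofactor that binds the HSP90 ATPase domain, fell as fitted from 69.4 to 16.2 CPM (-2.10 ± 0.22, edgeR adjusted p = 1.9e-06) and was higher after the correction (0.85, adjusted p = 0.017). After the correction 8 of the 14 rose and none fell in the control, beside 21.0% and 17.2% of all genes.

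Of the small heat shock proteins, only Hspb6, Hspb8 and, at about 1 CPM, Hspb2 had enough counts to be tested. Hspb1, the small heat shock protein best known from stressed cells, had 3 counts over all 12 libraries, all of them in FHL2-labelled day 0 replicate 3. Hspb8, which works with Bag3 in removing misfolded proteins, had 45.5, 45.4 and 48.8 CPM on day 0 and 77.7, 61.4 and 53.0 on day 2 in the control. In the FHL2-labelled libraries it had 70.5, 69.9 and 71.7 against 78.9, 116 and 104 CPM. All day 2 libraries lay above the day 0 libraries of their line, and the gene rose by 0.46 ± 0.16 (edgeR adjusted p = 0.020) and 0.49 ± 0.15 (adjusted p = 0.014). The changes were 0.06 and 0.10 after the GC correction and did not pass. As fitted, the control call was lost with control day 0 replicate 1 or 2, or day 2 replicate 1, left out, and the FHL2-labelled call without day 2 replicate 2. Bag3 rose from a mean of 98.8 to 274 CPM in the control and from 105 to 222 CPM in the FHL2-labelled libraries (1.47 ± 0.10 and 1.08 ± 0.10, edgeR adjusted p = 2.9e-08 and 5.1e-07). It kept its rise after the correction (0.84 and 0.47).

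Of the 19 tested cytosolic and nuclear J-domain proteins, 2 rose and 9 fell as fitted in each line, where 26.3% of all genes rose and 30.8% fell in the control and 25.8% and 30.2% in the FHL2-labelled libraries. After the GC correction 3 rose and 5 fell in the control and 2 rose and 6 fell in the FHL2-labelled libraries (all genes 21.0% and 17.2%, and 20.5% and 17.7%). Their median changes were -0.71 and -0.67 as fitted, and -0.20 and -0.25 corrected.

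Dnaja1, a farnesylated partner of HSP70, had 173, 164 and 130 CPM on day 0 and 32.1, 33.4 and 51.5 on day 2 in the control, and 178, 154 and 154 against 29.7, 44.1 and 51.4 CPM in the FHL2-labelled libraries. It fell by 2.00 and 1.96 on the log2 scale (edgeR adjusted p = 2.0e-06 and 2.3e-06), without overlap. The corrected changes of -0.16 and -0.32 did not pass. Its close relative Dnaja2 fell by 1.20 and 1.18 as fitted, with corrected changes of 0.32 and 0.20 that did not pass. Both have a low GC content (41.2 and 42.6%).

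Dnajc2, a ribosome-bound J-domain protein that recruits HSP70 to growing chains, had the largest fall in the control among members with a mean of at least 5 CPM. It had 34.9, 48.6 and 30.8 CPM on day 0 and 7.38, 4.12 and 4.54 on day 2 in the control, and 47.6, 35.4 and 37.9 against 6.52, 10.6 and 6.06 CPM in the FHL2-labelled libraries. The groups lay far apart in both lines (-2.82 ± 0.30 and -2.38 ± 0.29, edgeR adjusted p = 2.0e-06 and 7.1e-06), and the fall passed after the correction too (-1.75 and -1.38, adjusted p = 1.5e-04 and 8.0e-04). Dnajc7, which bridges HSP70 and HSP90, fell equally under both fits. Its control levels were 159, 153 and 148 CPM on day 0 and 64.4, 83.0 and 72.6 on day 2, a change of -1.07 ± 0.15 as fitted and -1.21 corrected (edgeR adjusted p = 2.3e-05 and 1.4e-05). In the FHL2-labelled libraries the changes were -1.07 and -1.21 as well.

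Dnajc21, a factor of ribosome assembly, fell by 1.71 in the control and 2.16 in the FHL2-labelled libraries (edgeR adjusted p = 9.7e-04 and 1.7e-04), and by 1.09 and 1.59 after the correction. Dnajc13, an endosomal protein, fell by 1.67 and 1.56, and by 0.75 and 0.71 corrected. Dnajb6, a suppressor of protein aggregation, fell from 50.2, 43.3 and 45.6 to 27.8, 34.7 and 33.0 CPM in the control (-0.54 ± 0.15, edgeR adjusted p = 0.0056, and -0.68 corrected).

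Dnajb2, a neuron-enriched J-domain protein that sends clients to the proteasome, was the clear riser of this class. It had 40.6, 46.6 and 45.6 CPM on day 0 and 88.2, 90.0 and 97.4 on day 2 in the control, and 49.8, 49.3 and 44.4 against 96.1, 93.1 and 89.7 CPM in the FHL2-labelled libraries. The rises were 1.05 ± 0.11 and 0.96 ± 0.11 (edgeR adjusted p = 1.6e-06 and 3.8e-06), and 0.38 and 0.31 after the correction, which still passed. Dnajb5 rose by 0.56 and 0.53 as fitted (edgeR adjusted p = 0.033 and 0.040) and by 0.06 and 0.05 corrected, which did not pass, and its calls were fragile: the control call was lost without control day 0 replicate 1 or 2, day 2 replicate 2 or any FHL2-labelled day 0 library. The FHL2-labelled call was lost without any 1 day 0 library of either line or FHL2-labelled day 2 replicate 2 or 3. Dnajb1, the stress-inducible partner of HSP70, had 46.1, 44.6 and 43.7 CPM on day 0 and 59.5, 78.6 and 41.3 on day 2 in the control, which overlapped (0.42 ± 0.18, edgeR adjusted p = 0.065, and 0.05 corrected). Without control day 2 replicate 3 the change was 0.69 (adjusted p = 0.0012).

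Dnajb4 depended on the fit more than any other member. It had 116, 101 and 79.9 CPM on day 0 and 110, 106 and 82.7 on day 2 in the control, and 115, 92.5 and 89.4 against 117, 103 and 100 CPM in the FHL2-labelled libraries. These groups overlapped (0.01 ± 0.15 and 0.11 ± 0.15, edgeR adjusted p = 0.96 and 0.58). After the GC correction the change was 2.25 ± 0.10 and 2.11 ± 0.10 (adjusted p = 5.1e-10 and 1.2e-09). At 39.0% its transcript has the lowest GC content of the tested members, so the correction moved it most. It was singled out after its values were seen.

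**Figure D4:**
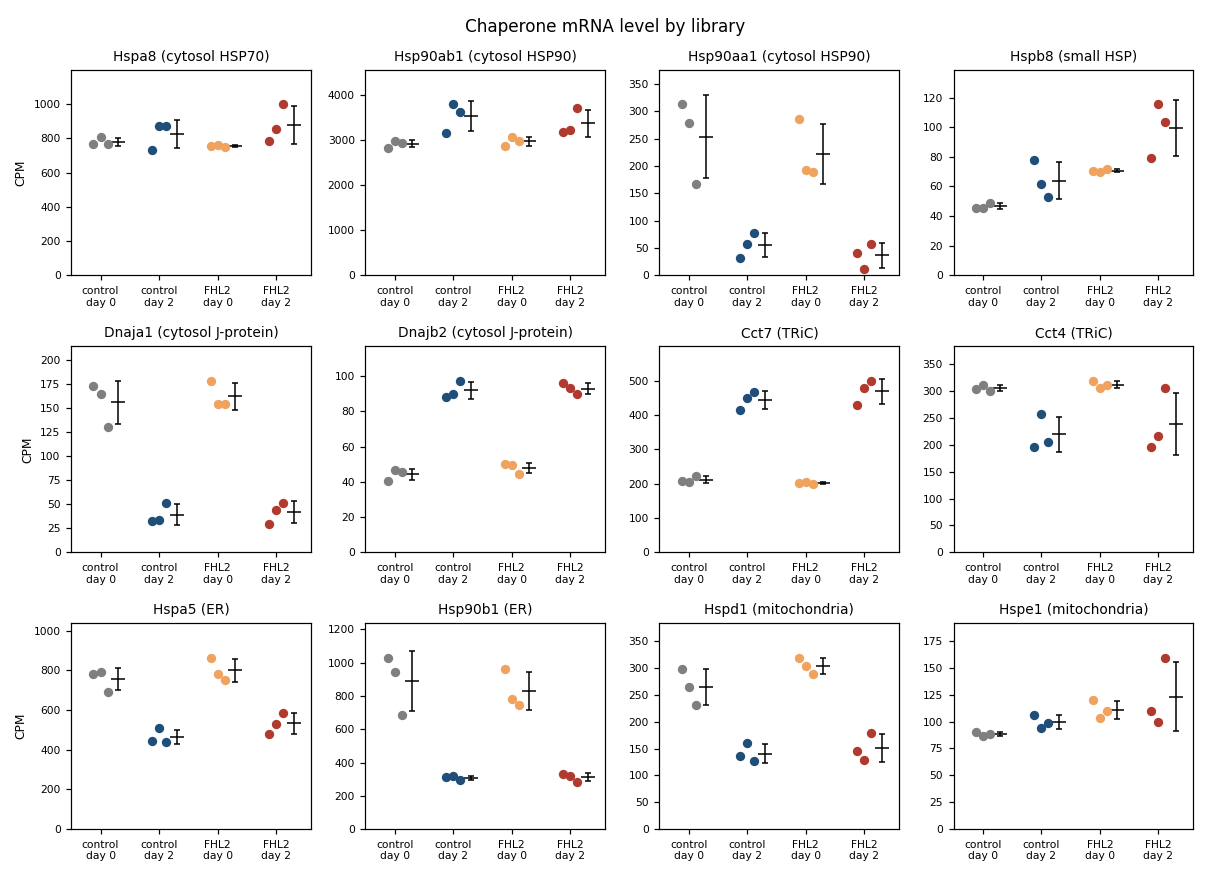
CPM (y axis, from 0) of 12 members in each of the 12 libraries, by group (x axis, FHL2 meaning the FHL2-labelled libraries); points are replicates 1 to 3 from left to right, bars the mean and SD of 3. Hsp90aa1, Dnaja1, Hspa5, Hsp90b1 and Hspd1 are lower on day 2 without overlap, Dnajb2 and Cct7 are higher, and the Hspa8 groups overlap in the control.

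The TRiC ring is built of 8 different subunits that stand in it in equal numbers. Their summed level was 2266 to 2360 CPM on day 0 and 2548 to 2922 CPM on day 2 in the control, without overlap, and 2302 to 2431 against 2374 to 3279 CPM in the FHL2-labelled libraries, which overlapped. As fitted, 3 of the 8 subunits rose and 2 fell in both lines. Over all genes 26.3% rose and 30.8% fell in the control, and 25.8% and 30.2% in the FHL2-labelled libraries. Without the GC correction the subunit levels drew apart. The highest subunit had 2.07 to 2.41 times the CPM per kb of the lowest on day 0 in the control and 3.32 to 4.62 times on day 2, and 2.36 to 2.52 against 3.64 to 4.70 times in the FHL2-labelled libraries.

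Cct7 had 206, 204 and 222 CPM on day 0 and 415, 449 and 467 on day 2 in the control, and 202, 203 and 198 against 429, 477 and 499 CPM in the FHL2-labelled libraries. It rose by 1.07 ± 0.08 and 1.22 ± 0.08 (edgeR adjusted p = 1.2e-07 and 4.2e-08), and by 0.57 and 0.74 after the GC correction (adjusted p = 6.9e-05 and 6.5e-06). Cct3 went from 240, 250 and 247 to 443, 432 and 426 CPM in the control and from 236, 238 and 254 to 325, 400 and 432 in the FHL2-labelled libraries. Its rises of 0.82 ± 0.10 and 0.67 ± 0.10 (edgeR adjusted p = 5.3e-06 and 3.5e-05) were 0.94 and 0.78 when corrected. Cct5 rose by 0.55 ± 0.10 and 0.57 ± 0.10 (edgeR adjusted p = 3.3e-04 and 2.6e-04), with corrected values of 0.51 and 0.53. In these 3 genes every day 2 library lay above every day 0 library of its line.

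Cct4 and Cct6a fell as fitted. Cct4 had 305, 312 and 301 CPM on day 0 and 197, 257 and 205 on day 2 in the control, and 319, 306 and 312 against 197, 216 and 305 CPM in the FHL2-labelled libraries. The third FHL2-labelled day 2 library lay just under the day 0 range. The changes were -0.48 ± 0.14 (edgeR adjusted p = 0.010) and -0.38 ± 0.14 (adjusted p = 0.031). After the correction Cct4 was instead higher (0.48 and 0.51, adjusted p = 0.018 and 0.013). Cct6a changed by -0.60 ± 0.18 and -0.65 ± 0.18 (edgeR adjusted p = 0.012 and 0.0075) and by -0.13 and -0.21 after the correction, which did not pass. Without control replicate 3 and FHL2-labelled replicates 1 and 2 of day 2, which leaves 1 FHL2-labelled day 2 library, the FHL2-labelled changes were -0.02 for Cct4 (edgeR adjusted p = 0.92) and -0.25 for Cct6a (adjusted p = 0.22). The FHL2-labelled Cct4 call was also lost without control day 2 replicate 1, any FHL2-labelled day 0 library, or FHL2-labelled day 2 replicate 1 or 2. In the control, leaving out day 2 replicate 1 or 3 raised the adjusted p of Cct4 to 0.075 and 0.071, and that of Cct6a to 0.085 and 0.072.

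Cct2, Cct8 and Tcp1 did not pass as fitted, with control changes of -0.07, -0.13 and 0.08. After the correction they rose by 0.43, 1.23 and 0.55 in the control (edgeR adjusted p = 0.012, 3.7e-06 and 0.0014) and by 0.50, 1.08 and 0.64 in the FHL2-labelled libraries. With the correction, then, 7 of 8 subunits rose and none fell in both lines, and the median change was 0.53 and 0.59. Over all genes 21.0% rose and 17.2% fell in the control, and 20.5% and 17.7% in the FHL2-labelled libraries. Cct8 has the lowest GC content of the subunits (43.3%) and Cct7 the highest (54.0%). The ratio of Cct7 to Cct4 counts, taken without the GC correction, was 0.655 to 0.740 on day 0 and 1.74 to 2.28 on day 2 in the control. In the FHL2-labelled libraries it was 0.631 to 0.665 against 1.63 to 2.21. The corrected changes of Cct7 and Cct4 were 0.57 and 0.48 in the control and 0.74 and 0.51 in the FHL2-labelled libraries. Cct6b, a testis form of the sixth subunit, had 67 counts in all and was not tested.

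Among 8 genes that hand substrates to TRiC, 2 rose and 4 fell in the control, beside 26.3% and 30.8% of all genes. In the FHL2-labelled libraries 3 rose and 3 fell, beside 25.8% and 30.2%. The corrected counts were 2 rises and 3 falls, and 2 rises and 1 fall (all genes 21.0% and 17.2%, and 20.5% and 17.7%). Pfdn5, a prefoldin subunit, rose from 262 to 562 CPM in the control (1.10 ± 0.10, edgeR adjusted p = 4.3e-07, and 0.56 corrected), with changes of 1.42 and 0.90 in the FHL2-labelled libraries. Pdcl, a phosducin-like cofactor, fell from 44.9 to 6.87 CPM in the control (-2.72 ± 0.28, edgeR adjusted p = 1.6e-06, and -1.95 corrected). The prefoldin subunit Vbp1 fell in the control as fitted (-1.93 ± 0.49, edgeR adjusted p = 0.0039) and was 1.03 after the correction, which did not pass (adjusted p = 0.097). Its FHL2-labelled change of -3.54 (edgeR adjusted p = 5.9e-05) kept its sign when corrected but did not pass (adjusted p = 0.12).

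Of the 14 ER members, 9 fell, 1 rose and 4 were not called in the control as fitted, with a median change of -0.77. In the other line 10 fell, none rose and 4 were not called, with a median of -0.63. Over all genes 30.8% and 30.2% fell. After the GC correction 2 rose and 3 fell in the control, 1 rose and 2 fell in the FHL2-labelled libraries, and the medians were 0.02 and -0.03 (17.2% and 17.7% of all genes fell). The median GC content of the 14 was 45.6%, against 47.4% for all tested members.

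3 of these genes carry the ER stress response element in the RefSeq promoter window (build GRCm38.p6, 250 bases before to 50 after the start). The element, bound by ATF6 with NF-Y when unfolded protein builds up in the ER, was searched on both strands as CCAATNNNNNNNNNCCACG. It was found in 3 of 65 members with a promoter entry (4.62%) and in 0.137% of all 27025 genes with such an entry. Unlike the members, those genes were not limited to protein-coding ones. The ER members Hspa13 and Dnajc18 had no entry and were not searched. Hsp90b1 holds 2 matches, 1 on each strand. The 30 bases around each match are printed in the 5′ to 3′ direction with the fixed letters in capitals, to set the sites side by side:

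Hspa5, chr2:34772020-34772049, plus strand, within an annotated exon of Hspa5: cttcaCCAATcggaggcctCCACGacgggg

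Hsp90b1, chr10:86705632-86705661, minus strand, outside annotated exons: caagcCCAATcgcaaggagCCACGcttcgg

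Hsp90b1, chr10:86705527-86705556, plus strand, outside annotated exons: aactcaCCAATcgtgcctcaCCACGcactc

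Dnajc3, chr14:118937822-118937851, plus strand, outside annotated exons: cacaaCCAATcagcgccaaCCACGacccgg

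The whole 150 bases before the start of Dnajc3, chr14:118937782-118937931, show the site in its setting: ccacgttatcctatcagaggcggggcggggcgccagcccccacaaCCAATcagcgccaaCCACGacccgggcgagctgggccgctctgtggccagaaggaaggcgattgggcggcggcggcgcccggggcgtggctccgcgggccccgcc

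Hspa5, the HSP70 of the ER (BiP), had 781, 793 and 693 CPM on day 0 and 446, 507 and 440 on day 2 in the control, and 865, 783 and 753 against 482, 529 and 588 CPM in the FHL2-labelled libraries. Every day 2 library lay below the day 0 libraries. It fell by 0.70 and 0.59 on the log2 scale (edgeR adjusted p = 2.2e-05 and 1.1e-04). After the correction the changes were 0.15 and 0.21 and did not pass. Hsp90b1, the HSP90 of the ER (GRP94), had 1031, 947 and 685 CPM on day 0 and 313, 318 and 295 on day 2 in the control, and 959.7, 779 and 746 against 330, 318 and 284 CPM in the FHL2-labelled libraries. It fell by 1.52 and 1.42 (edgeR adjusted p = 4.6e-07 and 9.1e-07), and by 0.27 in both lines after the correction (adjusted p = 0.041 and 0.040). Dnajc3, a J-domain protein that also inhibits the kinase PERK, went from 66.8, 59.4 and 48.1 to 28.3, 18.9 and 20.1 CPM in the control (-1.37 ± 0.20, edgeR adjusted p = 4.0e-05). Its change in the FHL2-labelled libraries was -1.59, and the corrected changes of 0.01 and -0.33 did not pass. The 3 genes with the element thus all fell as fitted in both lines, and after the correction Hsp90b1 fell while Hspa5 and Dnajc3 did not pass.

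Dnajb9, a J-domain partner of Hspa5 that is a classic target of the unfolded protein response, turned with the fit. It had 33.0, 35.2 and 28.0 CPM on day 0 and 14.4, 17.1 and 11.5 on day 2 in the control (-1.16 ± 0.23, edgeR adjusted p = 5.9e-04), and 0.76 after the correction (adjusted p = 0.0093). Hspa13, an ER-associated HSP70, changed by -1.60 ± 0.24 in the control as fitted and by 0.50 after the correction (edgeR adjusted p = 5.4e-05 and 0.046). In the FHL2-labelled libraries its corrected change was 0.0034 and did not pass (edgeR adjusted p = 0.99). Dnajc10, an ER disulfide reductase, fell under both fits in the control (-1.28 and -0.27, edgeR adjusted p = 6.3e-07 and 0.048), and Dnajc1 did so too (-0.81 and -0.60, adjusted p = 0.0020 and 0.018). Neither Dnajc10 nor Dnajc1 passed after the correction in the FHL2-labelled libraries. Dnajb12, which is anchored in the ER membrane, rose in the control as fitted (0.53 ± 0.15, edgeR adjusted p = 0.0088) and was at 0.01 after the correction. Without control day 0 replicate 2 its adjusted p was 0.053.

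Dnajb11, a soluble partner of Hspa5, was the member with an unadjusted p under 0.05 for the difference between the lines in the day change. It had 98.0, 101 and 100.4 CPM on day 0 and 99.9, 98.7 and 127 on day 2 in the control, and 116, 115 and 111 against 75.0, 65.3 and 113 CPM in the FHL2-labelled libraries. The change was 0.12 ± 0.17 (edgeR adjusted p = 0.56) and -0.43 ± 0.17 (adjusted p = 0.039). After the correction it was 0.03 in the control and -0.51 in the FHL2-labelled libraries (edgeR adjusted p = 0.89 and 0.022). The difference between these changes did not pass over all genes (-0.55 ± 0.23, edgeR adjusted p = 0.69).

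Of 13 other folding factors of the ER, 8 rose and 2 fell in each line (all genes 26.3% and 30.8%, and 25.8% and 30.2%). With the GC correction 7 rose and 2 fell in each line (all genes 21.0% and 17.2%, and 20.5% and 17.7%). Calr, the lectin chaperone calreticulin, rose from a mean of 1679.85 to 3531 CPM in the control (1.07 ± 0.09, edgeR adjusted p = 1.9e-07, and 1.07 corrected), and P4hb, a protein disulfide isomerase, from 1346 to 3259.9 CPM (1.28 ± 0.07, adjusted p = 7.3e-09, and 0.79 corrected). Canx, the membrane-bound relative of calreticulin, fell as fitted from 641 to 256 CPM (-1.32 ± 0.11, edgeR adjusted p = 1.8e-07) and was higher after the correction (0.28, adjusted p = 0.0063). In the control, Calr and Canx thus moved in opposite directions as fitted and in the same direction once corrected. The ER HSP110, Hyou1, rose under both fits in the control (0.95 ± 0.09 and 0.46, edgeR adjusted p = 8.2e-07 and 9.2e-04).

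In the mitochondria, 3 of 10 members rose and 4 fell in the control as fitted, and 3 rose and 2 fell in the FHL2-labelled libraries, beside the shares over all genes (26.3% and 30.8%, and 25.8% and 30.2%). The corrected counts were 3 rises and 1 fall, and 2 rises and 1 fall (all genes 21.0% and 17.2%, and 20.5% and 17.7%). Hspa9, the mitochondrial HSP70, had 653, 692 and 609 CPM on day 0 and 340, 445 and 437 on day 2 in the control, and 806, 760 and 820 against 382, 409 and 505 CPM in the FHL2-labelled libraries. It fell by 0.68 and 0.88 without overlap (edgeR adjusted p = 1.8e-04 and 1.8e-05), with corrected changes of 0.12 and -0.14 that did not pass.

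Hspd1 and Hspe1, whose proteins are the barrel and the lid of the mitochondrial chaperonin, stand head to head, with starts 215 bases apart in RefSeq's GRCm38.p6. The heat shock element, the binding site of the HSF factors, was searched on both strands as GAANNTTCNNGAA (3 units) and as its core GAANNTTC, which every 3-unit match contains. The 3-unit form was found in 4 of the 65 members with a promoter entry (6.15%) and 0.662% of all genes with such an entry. The core was found in 15 of these members (23.1%) and 9.04% of all genes with an entry. Members without an entry, among them Hsp90aa1, Hsp90ab1, Hspa8 and Hspa9, were not searched. The Hspd1 and Hspe1 windows hold the same pair of overlapping matches, 1 on each strand. The stretch is shown with the other 2 searched members that have one, 5′ to 3′ with the GAA and TTC units in capitals, to set these sites side by side:

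Hspd1 and Hspe1, chr1:55088051-55088080, minus strand, within an annotated exon of Hspd1: ggccTTCcgGAAggTTCtaGAAcggaccgt

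Hsph1, chr5:149636287-149636316, plus strand, within annotated exons of Hsph1: aGAActTTCcaGAAtctgcagcattttact

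Dnajb6, chr5:29735844-29735873, plus strand, within annotated exons of Dnajb6 and Gm5129: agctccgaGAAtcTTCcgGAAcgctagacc

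The counts of the pair did not move together. Hspd1 had 298, 264 and 230 CPM on day 0 and 135, 160 and 127 on day 2 in the control, and 319, 303 and 290 against 145, 128 and 179 CPM in the FHL2-labelled libraries. It fell by 0.91 and 1.01 (edgeR adjusted p = 4.3e-05 and 1.7e-05), and by 0.33 and 0.47 after the correction (adjusted p = 0.042 and 0.0058). Hspe1 had 90.7, 86.4 and 88.5 CPM on day 0 and 106, 93.8 and 98.2 on day 2 in the control, and 120, 103 and 110 against 110, 99.96 and 160 CPM in the FHL2-labelled libraries. Its changes were 0.17 ± 0.15 and 0.15 ± 0.15 and did not pass (edgeR adjusted p = 0.35 and 0.41), nor did the GC-corrected changes of -0.08 and -0.09. With GC content and length both corrected, Hspe1 was lower on day 2 (-0.37 and -0.48, edgeR adjusted p = 0.016 and 0.0031). The count ratio of Hspd1 to Hspe1 was 2.60 to 3.29 on day 0 and 1.27 to 1.71 on day 2 in the control, and 2.64 to 2.94 against 1.12 to 1.32 in the FHL2-labelled libraries. Hspd1 shares 42.8% of its 50-base stretches with the pseudogene Hspd1-ps3, which took 7.39 to 9.87% of the pair's counts in the control on day 0 and 9.37 to 24.2% on day 2, so part of the Hspd1 counts is uncertain.

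Dnajc30, which binds the ATP synthase, rose from 22.4, 21.0 and 22.5 to 52.1, 48.1 and 39.8 CPM in the control and from 24.3, 22.3 and 22.6 to 58.4, 57.6 and 54.0 in the FHL2-labelled libraries. The rises were 1.09 ± 0.14 and 1.30 ± 0.14 (edgeR adjusted p = 1.4e-05 and 2.7e-06), and 0.55 and 0.77 corrected, which passed as well. Dnajc11, a protein of the cristae-shaping complex, rose by 0.85 and 0.70 (edgeR adjusted p = 4.1e-05 and 2.4e-04), and by 0.35 (adjusted p = 0.026) and 0.22 (adjusted p = 0.15) after the correction. Dnajc4 rose by 1.07 and 0.62 (edgeR adjusted p = 0.0012 and 0.030), with corrected changes of 0.37 and -0.02 that did not pass. The FHL2-labelled Dnajc4 call was lost without FHL2-labelled day 0 replicate 1 or 2 or day 2 replicate 3.

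Dnajc19, a J-domain protein of the inner membrane import motor, had 25.4, 22.8 and 20.1 CPM on day 0 and 6.68, 8.23 and no count on day 2 in the control (-2.16 ± 0.68, edgeR adjusted p = 0.014, and -0.25 corrected). The pseudogene Dnajc19-ps had 772 counts over all libraries, and how reads fell between it and Dnajc19 was not tested. In the FHL2-labelled libraries the mean of Dnajc19 went from 8.75 to 4.50 CPM per kb, a change that did not pass. Dnajc15, its close relative, had 18.4, 17.7 and 18.9 CPM against 21.9, 23.7 and 11.1 in the control, which overlapped. Its change was 0.05 as fitted and 1.20 after the correction (edgeR adjusted p = 0.88 and 0.0013). Dnaja3, the J-domain partner of Hspa9 in the matrix, did not pass under either fit (0.09 and -0.01 in the control). Of 7 mitochondrial folding partners, 5 rose and 1 fell in the control as fitted, beside 26.3% and 30.8% of all genes. With the GC correction 2 rose there and none fell, beside 21.0% and 17.2% of all genes. Trap1, the mitochondrial HSP90, rose from 78.4 to 159 CPM (1.02 ± 0.10, edgeR adjusted p = 6.9e-07, and 0.72 corrected), and Grpel1, the exchange factor of Hspa9, rose under both fits as well (0.65 and 1.14).

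No compartment was given to 2 members. Hspb11, a subunit of intraflagellar transport despite its symbol, fell as fitted and was higher after the correction in both lines (-0.92 and 0.60 in the control, edgeR adjusted p = 0.0012 and 0.010). Dnajc22 had 35 counts over the FHL2-labelled day 0 libraries and none on day 2, which makes it at least 7.80-fold lower against a floor of 3 counts over the group.

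The heat shock factors, which switch on many of these genes under stress, did not share a direction. Hsf1, the main stress factor, rose from a mean of 45.4 to 81.5 CPM in the control and from 44.7 to 79.6 CPM in the FHL2-labelled libraries (0.84 ± 0.14 and 0.83 ± 0.14, edgeR adjusted p = 1.1e-04 and 1.3e-04), with corrected changes of 0.15 and 0.17 that did not pass. Hsf2 fell as fitted (-1.05 ± 0.33 in the control, edgeR adjusted p = 0.015), and was 0.84 after the correction (adjusted p = 0.079). That call was lost without control day 0 replicate 2 or control day 2 replicate 1 or 2. Hsf4 fell in the control from 7.52 to 3.29 CPM (-1.20 ± 0.38, edgeR adjusted p = 0.015, and -2.01 corrected), and that call was lost without control day 2 replicate 2. Among the 11 HSP70 cofactors outside the family names, 5 rose and 2 fell in the control, beside 26.3% and 30.8% of all genes. With the GC correction 5 rose and 1 fell there, beside 21.0% and 17.2% of all genes. Bag6, which guards hydrophobic proteins in the cytosol, rose from 231 to 706 CPM (1.61 ± 0.10, edgeR adjusted p = 2.3e-08, and 0.86 corrected), and Hspa4l, an HSP110 relative, fell from 42.4 to 7.40 CPM (-2.53 ± 0.39, adjusted p = 7.5e-05, and -0.32 corrected, which did not pass).

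Between the lines, no member passed the edgeR test on day 0 or day 2, where 0.0485% and 2.07% of all genes did. At an unadjusted p under 0.05 there were 5 of 67 members on each day (7.46%), beside 4.16% of all genes on day 0 and 18.1% on day 2. No member passed the edgeR test of the difference between the day changes, where 0.00693% of all genes did. Unadjusted, 1 of 67 members (1.49%) and 6.90% of all genes had a p under 0.05 there. Without control replicate 3 and FHL2-labelled replicates 1 and 2 of day 2, the difference was called for Dnajc21 (-1.71, edgeR adjusted p = 0.030). The spread entered into these tests was shared by both days and was larger on day 2 than on day 0 (biological coefficient of variation of 0.39 against 0.120).

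Hspb8 came nearest. Its day 0 levels of 70.5, 69.9 and 71.7 CPM in the FHL2-labelled libraries all lay above the 45.5, 45.4 and 48.8 CPM of the control, and its day 2 levels of 78.9, 116 and 104 CPM above 77.7, 61.4 and 53.0. The differences were 0.60 ± 0.15 (edgeR adjusted p = 0.31) on day 0 and 0.63 ± 0.15 (adjusted p = 0.051) on day 2. DESeq2 called it on both days (adjusted p = 0.048 and 0.0055), and edgeR did so on day 2 after the GC correction (adjusted p = 0.041). Hspb6, the small heat shock protein of muscle and fat, was also higher in every FHL2-labelled library than in every control library of its day, with means of 53.1 ± 3.1 against 39.8 ± 1.8 CPM on day 0 and 62.5 ± 4.6 against 48.6 ± 7.1 CPM on day 2 (SD, n = 3). Neither difference passed (0.42 and 0.36, edgeR adjusted p = 0.62 and 0.17).

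A fit of the 6 day 0 libraries alone, which takes the smaller day 0 spread, called 6 members, all higher in the FHL2-labelled libraries, among 126 genes called higher over the whole table. The number of genes tested in that fit is not given here. No share over all genes is therefore set beside the 6, and they are not read as a result about the members. They were Hspb8 (0.63, edgeR adjusted p = 0.0037), Hspb6 (0.44, adjusted p = 0.032), Hspa9 (0.31, adjusted p = 0.034), Dnajc15 (0.54, adjusted p = 0.037), Hspe1 (0.35, adjusted p = 0.047) and Dnajc8 (0.32, adjusted p = 0.048). Dnajc8 is a splicing-associated J-domain protein. Counts of the mouse Fhl2 gene overlapped between these same libraries.

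Of the 56 tested partner genes, none was called between the lines on day 0 and 1 on day 2 as fitted. Over all genes 0.0485% and 2.07% were called, so the 1 call is not read as a result about the partners. It was P4hb, which was lower in every FHL2-labelled day 2 library than in every control library of that day (-0.36 ± 0.07, edgeR adjusted p = 0.022, and -0.34 corrected, adjusted p = 0.043). The call was lost in the fit of the 6 day 2 libraries alone (edgeR adjusted p = 0.17) and without control replicate 1 or 2 or FHL2-labelled replicate 1 or 2 of day 2 (adjusted p = 0.066 to 0.090). The FHL2-labelled minus control difference of Hsf4 on day 2 was 1.43 ± 0.39 as fitted, which did not pass (edgeR adjusted p = 0.074), and 1.52 after the correction, which did (adjusted p = 0.043). Without control replicate 3 and FHL2-labelled replicates 1 and 2 of day 2 its difference was 0.69 (edgeR adjusted p = 0.21).

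**Figure D5:**
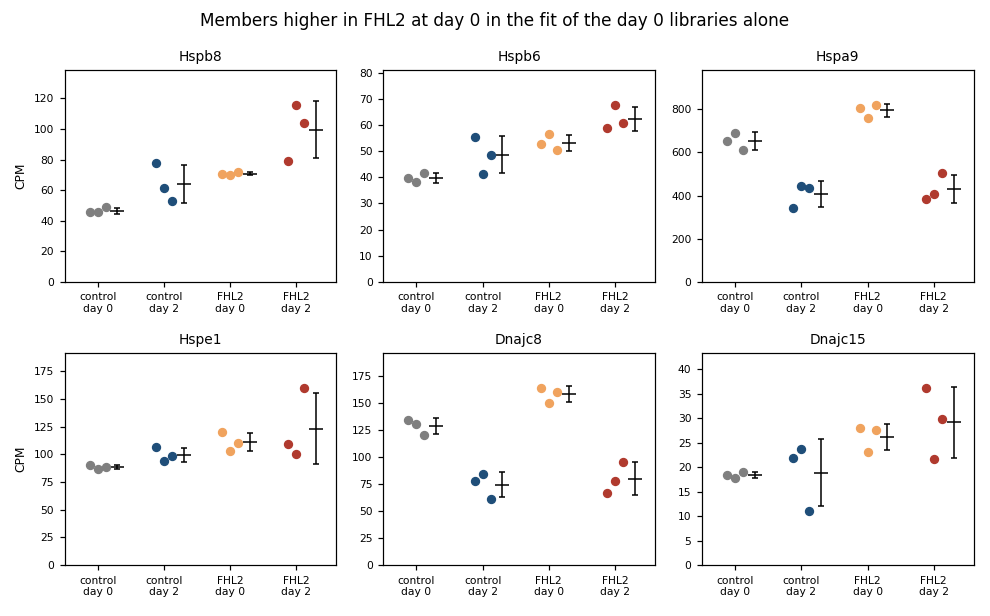
CPM (y axis, from 0) of the 6 members called higher in the FHL2-labelled libraries in the fit of day 0 libraries alone, by group (x axis); points are replicates 1 to 3, bars the mean and SD of 3. On day 0 no library overlaps between the lines in these genes, which were chosen from those same libraries, so this is no separate support. On day 2 Hspb8 and Hspb6 alone stay without overlap.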

How the data were processed

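The authors deposited 1 table of raw read counts, with Ensembl identifiers as rows and libraries as columns. Per the submitters' processing notes, reads were handled on GRCm39 with HISAT2 2.2.1, HTSeq 0.11.0, limma, Trimmomatic 0.39, R 4.1.0 and FastQC 0.11.9; the sources used here give no order, setting or annotation release. Groups came from the sample labels. The depth was 10047708 to 21872139 counts per library, and limits from counts cover counting error only.

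Members, compartments and partner lists were chosen with earlier results of these data known. Symbols, biotypes, GC content and length came from GENCODE M21 by identifier (GC for 99.8% of tested genes), with RefSeq's biotype for Cct6a. The gene test was edgeR 4.0.16, run in R 4.3.3 (filterByExpr by group, TMM, 1 mean per group over all 12 libraries, quasi-likelihood, 2-sided, Benjamini-Hochberg over 14435 genes, threshold 0.05), on a script tested on simulated data. The GC correction is a loess offset per library (span 0.5). Alternatives used DESeq2 1.42.0, limma-voom (limma 3.58.1), other scalings and filters, fewer libraries and a replicate block.

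Named genes were a set list of central members, the heat shock factors Hsf1 and Hsf2, up to 3 rises and 3 falls per compartment and line with a mean of at least 5 CPM, members called between lines, and up to 2 called genes per partner list. Other named genes, among them Bag3, Calr, Pfdn5, Hyou1, Grpel1, Dnajb4, Dnajb11, Dnajc15 and Hspb6, and the line differences of P4hb and Hsf4, were added after their values were seen. Promoters are RefSeq's, build GRCm38.p6, and no coordinate was converted.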

Additional observations from a re-analysis of the deposited data

How the results depend on the processing

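Most results depended little on scaling, low-count filter or tool. Over 12 other settings and 12 fits that each left out 1 library, 94 gene results were recomputed. RLE scaling changed no call, and DESeq2 and limma-voom ended none. In the control 11 members rose and 28 fell with the replicate block as without it, and in the FHL2-labelled libraries 10 rose and 28 fell. The block ended 1 call, the FHL2-labelled rise of Dnajb5 (edgeR adjusted p = 0.057). Replicate numbers did not pair the libraries: of 18 same-numbered pairs 1 correlated above 0.1 (range -0.086 to 0.10), and 11 correlated best with their own number. Leaving out single libraries gave 8 to 13 rises and 24 to 27 falls in the control and 7 to 14 rises and 21 to 29 falls in the FHL2-labelled libraries. Between lines these fits gave 0 to 1 call in each direction on day 2 (Hspb8 or Hspa4 higher, Dnajb11 lower).

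The correction for GC content moved the most. With it alone, with length and with the block, the control had 17, 18 and 17 rises and 11, 12 and 8 falls, and the FHL2-labelled libraries had 12, 13 and 11 falls. Day changes whose sign turned were as follows. Under these 3 fits in that order, the FHL2-labelled values were Hspa5 0.21, 0.23 and 0.21, Dnajb9 0.92, 0.73 and 0.92, Cct4 0.51, 0.36 and 0.49, Cct8 1.08, 0.88 and 1.07, Hsf2 0.65, 0.45 and 0.56, Hspa12b -0.21, -0.18 and -0.22, and Dnajc4 -0.021, -0.28 and -0.032. Under GC content alone and with length, the FHL2-labelled values were Hspa13 0.0034 and 0.0030. Under GC content alone and with the replicate block, the FHL2-labelled values were Hspb11 0.55 and 0.55. With length, the FHL2-labelled values were Hspa4 0.036, and Hspe1 -0.48. Under these 3 fits in that order, the control values were Hspa5 0.15, 0.18 and 0.15, Dnajb9 0.76, 0.57 and 0.76, Hspa9 0.12, 0.10 and 0.11, Cct2 0.43, 0.34 and 0.43, Cct4 0.48, 0.39 and 0.48, Cct8 1.23, 1.07 and 1.22, Hsf2 0.84, 0.68 and 0.74, Hspa13 0.50, 0.51 and 0.48, Chordc1 0.85, 0.97 and 0.79, Vbp1 1.03, 0.58 and 0.88, and Canx 0.28, 0.30 and 0.28. Under GC content alone and with length, the control values were Dnajc3 0.0065 and 0.083. Under GC content alone and with the replicate block, the control values were Hspb11 0.60 and 0.60. With length, the control values were Hspe1 -0.37. A further 43 sign changes were of values called in neither setting. The cause of these turns was not tested.

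Between the lines on day 0, 1 member was called higher without a filter, with DESeq2 and without control replicate 3 and FHL2-labelled replicates 1 and 2 of day 2 (Hspb8 each time), and 6 in the fit of the groups compared. On day 2, 2 were called higher and 1 lower without a filter (Dnajc19 and Hspb8, and Hsp90aa1). DESeq2, limma-voom and the GC correction called 1 (Hspb8). Without those 3 libraries 3 were higher (Dnaja1, Hspb8 and Hspe1) and 2 lower (Dnajc13 and Dnajc21), and 1 (Dnajc21) was lower in the difference between day changes; this fit keeps 1 FHL2-labelled day 2 library, assumed to vary like the others. No fit of only the groups compared exists for that difference, which uses all 4. Low counts limit Hspa1a, Hspb2, Dnajc12 and Dnajc22, whose standard errors exceed 1 in at least 1 day change.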
